A study of Homo sapiens with 8 samples.

Results

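Integrins and laminins form the adhesion system by which a squamous cell holds on to its basement membrane, and their 41 genes on the array were followed here in SAS cells that received 1 of 3 microRNA mimics or a control. The genes were chosen by name: ITGA or ITGB followed by a digit or by V, E, X, L, M or D, and LAMA, LAMB or LAMC followed by a digit, out of 43317 gene names. They comprised 26 integrin subunits, 12 laminin chains, the integrin-like gene ITGBL1 and the antisense RNAs ITGA9-AS1 and ITGB2-AS1, whose names also match. The array carried 65 sequences for them. Of the 41 genes, 32 were tested, those whose signal stood well above background on each array of some group.

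SAS is an established human tongue squamous carcinoma line, and the study worked with its GFP-carrying derivative, SAS/GFP, while the sample labels say only SAS. Every group received 25 nM of a small RNA by transient transfection: the negative control RNA (NC) or a mimic of miR-874-3p, miR-210-3p or miR-629-3p. The study's methods name different suppliers for the mimics (Dharmacon) and the negative control (Applied Biosystems). In comparisons with NC, the miRNA sequence and the supplier therefore cannot be told apart. The labels put RNA extraction at 48 h, and the study's methods give a shorter time, so the interval behind these values is uncertain. Each group had 2 arrays (8 in all), and nothing states that the 2 came from separate transfections, so the p-values measure a spread that may be technical. One-colour Agilent arrays were hybridised with 100 ng of RNA. All 8 shared 1 slide, with miR-629-3p and miR-210-3p in slide row 1 and miR-874-3p and NC in row 2. Differences between miR-629-3p and miR-210-3p, and between miR-874-3p and NC, therefore lie within a row, and for the other comparisons row and group cannot be told apart. Sequences well above background made up 42.2% to 49.8% of 58201 per array, fewest with NC, and no spot was saturated. Signals are given as log2 of the background-subtracted intensity relative to the 75th percentile of the array, so 0 is the 75th percentile and a difference of 1 is a doubling.

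An integrin is a pair of one alpha and one beta chain that spans the membrane, binds matrix outside and links to actin or keratin filaments inside. The alpha chain largely sets the ligand: alpha-1, alpha-2, alpha-10 and alpha-11 bind collagen, alpha-3, alpha-6 and alpha-7 bind laminin, and alpha-5, alpha-8, alpha-V and alpha-IIb recognise RGD motifs, as in fibronectin. A laminin is a cross-shaped trimer of one alpha, one beta and one gamma chain. In stratified epithelium laminin-332 is bound by alpha-6 beta-4 in hemidesmosomes and by alpha-3 beta-1.

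A miRNA pairs with its targets mainly through its seed, bases 2 to 8. The mature sequences below, from RefSeq (GRCh38.p14), are shown because the seed is what distinguishes the treatments. The seed is in capitals, and the 3 seeds differ.
miR-629-3p: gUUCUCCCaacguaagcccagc
miR-210-3p: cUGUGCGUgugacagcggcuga
miR-874-3p: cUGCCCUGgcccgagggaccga
Their genes are MIR629 at chr15:70079387-70079408, MIR210 at chr11:568112-568133 and MIR874 at chr5:137647582-137647603, all on the minus strand. The complement of the miR-629-3p seed, GGGAGAA, was in 0 of the 65 integrin and laminin sequences on the array (0.747% of all sequences), and that of miR-874-3p, CAGGGCA, in 0 (0.387% of all). The complement of the miR-210-3p seed, ACGCACA, was in 1 of them (0.131% of all), a sequence of ITGB5 at chr3:124482491-124482550 (hg19, minus strand), of which the 30 bases around the match are shown with the match in capitals.
ITGB5: agcctatctccACGCACActgtggacttca
ITGB5, the beta chain of the alpha-V beta-5 receptor for vitronectin, was 0.08 ± 0.07 (SE) higher on the log2 scale with miR-210-3p than with NC (adjusted p = 0.519). These array sequences are 60 bases long and cover little of each transcript, so they do not say whether the rest of it holds a match.

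With miR-629-3p, 7 of the 32 genes passed the test against NC (limma, adjusted p under 0.05 over all 21283 genes tested). Of these, 6 rose: ITGA10, ITGB8, LAMA2, LAMB3, ITGA6 and ITGBL1. Among all genes tested, 9.28% were called higher. The only integrin or laminin gene called lower was ITGA4, 1 of 32, against 7.47% of all genes. With miR-210-3p, 2 of 32 were called higher (3.85% of all genes) and 0 lower (2.2% of all). These were ITGA2 and ITGA10, and for ITGA10, near background with NC, only a 1.03-fold difference is bounded. With miR-874-3p, 0 of the 32 were called in either direction in limma, where 0.216% of all genes were called higher and 0.207% lower. At an unadjusted p under 0.05, limma counted 4 of 32 with miR-874-3p (16.4% of all genes) and the methods' t-test 2 (9% of all genes). The median log2 difference of the 32 genes from NC was 0.03 with miR-629-3p (0.02 over all genes tested). It was -0.04 with miR-874-3p (-0.01 over all) and 0.09 with miR-210-3p (0.05 over all). At the study's threshold, an unadjusted p under 0.05 with a change of at least 2-fold, ITGA10, ITGB8 and LAMA2 were called with miR-629-3p (3 of 32, against 5.26% of all genes), 1 with miR-210-3p (ITGA10, by its fitted fold only, against 3.14%) and none with miR-874-3p (0, against 2.02%). RNA came from whole cultures, so a change in the share of cells that express a gene and a change in RNA per cell cannot be told apart.

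**Figure D1:**
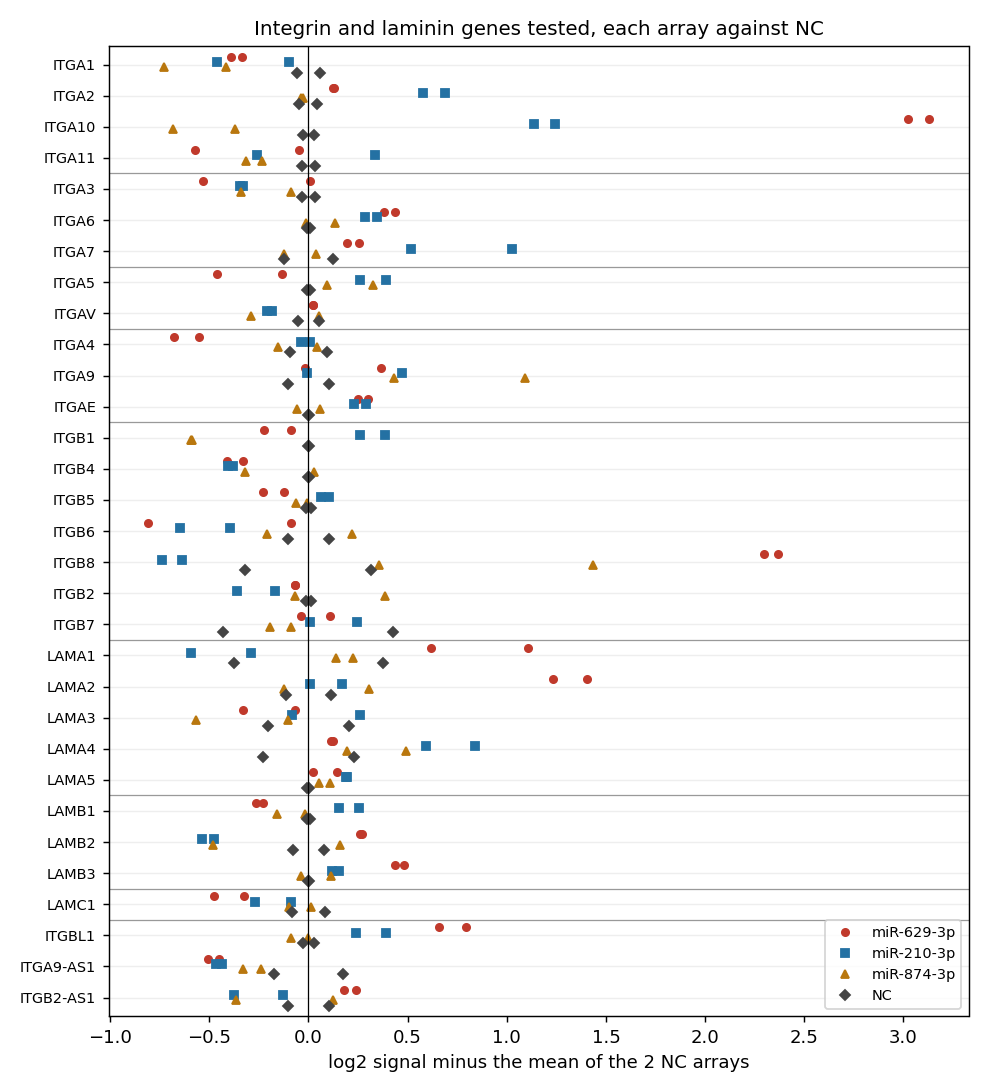
Each row is 1 of 31 integrin and laminin genes tested, grouped by role, and each point is 1 array: its log2 signal minus the mean of the 2 NC arrays (x axis). ITGA10, ITGB8 and LAMA2 with miR-629-3p lie at 1.2 or more on this axis, while most other points lie within 0.5 of 0, and the 2 miR-874-3p arrays of ITGB8 lie 1.08 apart.

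Among the collagen receptors, ITGA10 changed most. ITGA10, the alpha-10 chain best known from cartilage, had log2 signals of -0.85 and -0.96 with miR-629-3p, above -2.85 and -2.74 with miR-210-3p. With NC it gave -3.96 and -4.01, with miR-874-3p -4.35 and -4.67, and these 4 arrays were not well above background. The groups did not overlap. The level with NC is thus only a bound, and miR-629-3p was at least 3.79-fold higher than NC (fitted difference 3.08 ± 0.12 SE, adjusted p = 0.000825). Against miR-210-3p, within the same slide row and with both groups measured, miR-629-3p was 3.69-fold higher (1.89 ± 0.12, adjusted p = 0.00214). The rise with miR-210-3p over NC was at least 1.03-fold (1.19 ± 0.12, adjusted p = 0.0119). With signals floored at the dimmest measured level this difference was 0.04 (adjusted p = 0.883), so it was not detectable once dim signals were bounded. Normexp background correction, with an offset of 50 that narrows differences between dim signals, gave 0.13 (adjusted p = 0.179). Normexp also reduced the miR-629-3p difference, to 0.62 (adjusted p = 0.000726), so the bound of 3.79-fold holds for signals without such an offset. The sequence lies at chr1:145543808-145543867 (hg19). ANKRD35, a neighbour of ITGA10 in the RefSeq gene order, was 0.57 ± 0.13 higher with miR-629-3p than with NC (adjusted p = 0.0392) and differed by -0.55 ± 0.13 with miR-210-3p (adjusted p = 0.068).

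ITGA2, the alpha chain of the alpha-2 beta-1 collagen receptor of epithelium and platelets, rose with miR-210-3p. Its log2 signals were 0.38 and 0.27 with miR-210-3p, -0.18 and -0.18 with miR-629-3p, -0.34 and -0.34 with miR-874-3p and -0.26 and -0.35 with NC. The miR-210-3p arrays stood above the other 6. The rise over NC was 1.55-fold (0.63 ± 0.07, adjusted p = 0.0155) and 1.59-fold over miR-874-3p (0.67 ± 0.07, adjusted p = 0.0109), and within its slide row ITGA2 was lower by 0.51 ± 0.07 with miR-629-3p than with miR-210-3p (adjusted p = 0.00993). With normexp the rise over NC was 0.31 (adjusted p = 0.0113). The sequence lies at chr5:52389637-52389696 (hg19). ITGA1, the partner of beta-1 in the alpha-1 collagen receptor, and ITGA11 were not called in any of the 6 comparisons, and ITGA11 was not well above background on the miR-874-3p and NC arrays. Its signals there were no lower as a group: -2.47 and -2.54 with NC and -2.82 and -2.74 with miR-874-3p. With miR-629-3p they were -2.55 and -3.08, and with miR-210-3p -2.77 and -2.17.

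Of the laminin receptors, ITGA6 alone was called against NC. ITGA6, which pairs with beta-4 in hemidesmosomes and with beta-1 elsewhere, had log2 signals of 4.67 and 4.62 with miR-629-3p, against 4.25 and 4.23 with NC, 4.58 and 4.52 with miR-210-3p and 4.23 and 4.37 under miR-874-3p. Both miR-629-3p arrays were above all miR-874-3p and NC arrays. The rise over NC was 1.33-fold with miR-629-3p (0.41 ± 0.08, adjusted p = 0.0249), and the difference with miR-210-3p was 0.31 ± 0.08 (adjusted p = 0.0773). The difference between these mimics was 0.10 (95% interval -0.10 to 0.29) and was not called. The sequence lies at chr2:173370556-173370615 (hg19). A second ITGA6 sequence, at chr2:173369203-173369262, differed by 0.23 ± 0.10 with miR-629-3p (adjusted p = 0.165). ITGB4, the beta chain that anchors keratin filaments through plectin, had signals of 6.40 and 6.48 with miR-629-3p, against 6.81 and 6.82 with NC, 6.43 and 6.41 with miR-210-3p and 6.50 and 6.84 under miR-874-3p. Its differences from NC of -0.37 ± 0.12 with miR-629-3p (adjusted p = 0.0944) and -0.39 ± 0.12 with miR-210-3p (adjusted p = 0.117) did not pass the test. ITGA3, the alpha chain of the other keratinocyte laminin-332 receptor, had signals between 4.21 and 4.77 on the 8 arrays, and its differences from NC (-0.26 with miR-629-3p, -0.34 for miR-210-3p and -0.21 for miR-874-3p, each ± 0.19) were not called. ITGA7, the laminin receptor of muscle, was 0.77 ± 0.19 higher with miR-210-3p than with NC (adjusted p = 0.0716).

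ITGB1 is the partner shared by most of these alpha chains. Its log2 signals were 1.44 and 1.30 with miR-629-3p, against 1.52 and 1.52 with NC, 1.78 and 1.91 with miR-210-3p and 0.93 and 0.94 under miR-874-3p. The 4 groups did not overlap, with miR-210-3p highest and miR-874-3p lowest. No difference from NC passed the test: the values were -0.59 ± 0.08 with miR-874-3p (adjusted p = 0.0636), 0.33 ± 0.08 with miR-210-3p (adjusted p = 0.0781) and -0.16 ± 0.08 with miR-629-3p (adjusted p = 0.245). The mimics differed from each other. ITGB1 was 1.89-fold higher with miR-210-3p than with miR-874-3p (0.92 ± 0.08, adjusted p = 0.00677), 1.35-fold higher with miR-629-3p than with miR-874-3p (0.44 ± 0.08, adjusted p = 0.0238) and, within a slide row, 1.40-fold lower with miR-629-3p than with miR-210-3p (-0.48 ± 0.08, adjusted p = 0.0149). The difference between miR-874-3p and NC is also within a row, and it was called when normexp, an intensity trend or a filter for sequences above background on all 8 arrays was used. The sequence lies at chr10:33200507-33200566 (hg19).

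**Figure D2:**
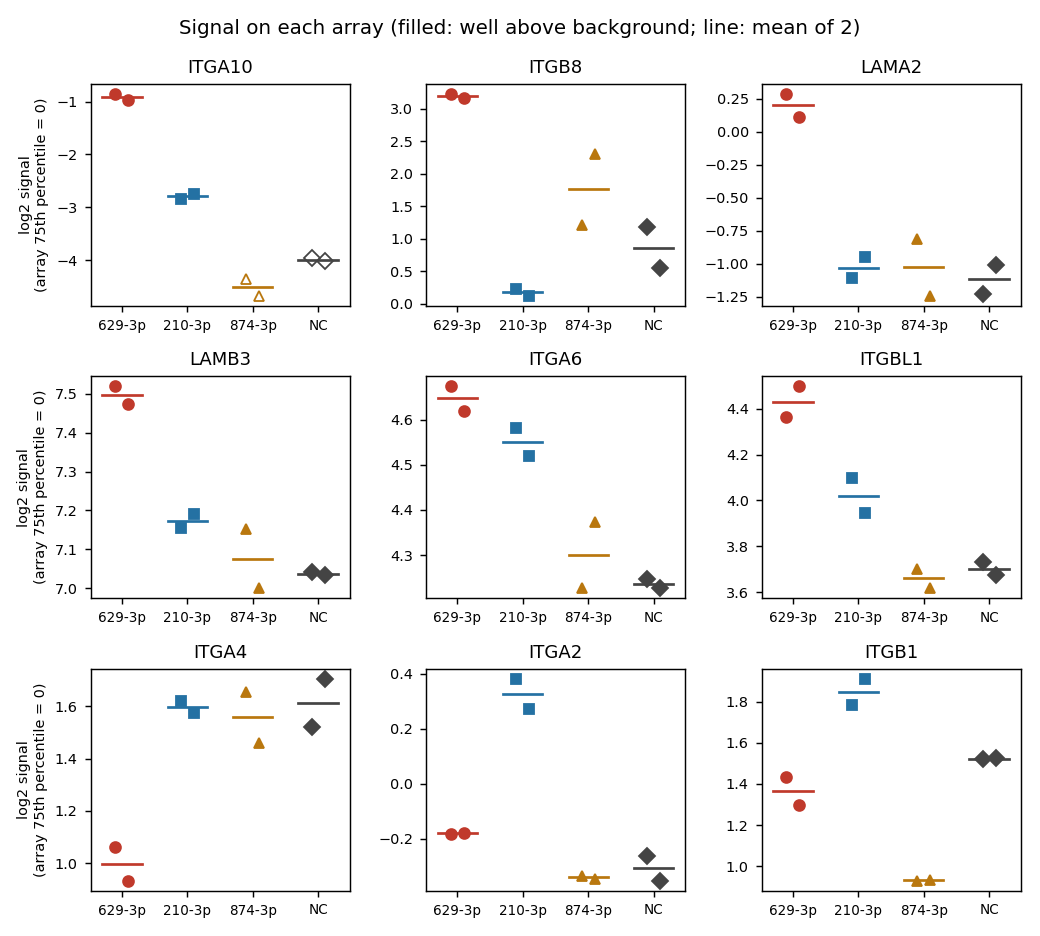
Log2 signal relative to the array's 75th percentile (y axis, scaled for each gene) on the 2 arrays of each group (x axis) for the 8 genes called against NC and ITGB1. Points are arrays, filled where both of the group's arrays were well above background, and lines are means of 2; miR-629-3p stands highest for ITGA10, ITGB8, LAMA2, LAMB3, ITGA6 and ITGBL1 and lowest for ITGA4.

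Of the RGD-binding chains, ITGB8 rose with miR-629-3p. ITGB8 pairs with alpha-V in a receptor that binds latent TGF-beta. Its log2 signals were 3.23 and 3.16 with miR-629-3p, against 1.18 and 0.55 with NC, 0.23 and 0.13 with miR-210-3p and 1.22 and 2.30 under miR-874-3p. The miR-629-3p arrays were above all others, the miR-210-3p arrays below all others, and replicates of miR-874-3p and of NC lay far apart. The rise over NC was 5.03-fold (2.33 ± 0.38, adjusted p = 0.0168), and within the slide row miR-629-3p was 8.12-fold above miR-210-3p (3.02 ± 0.38, adjusted p = 0.00705). The difference from miR-874-3p was 1.44 ± 0.38 (adjusted p = 0.0565). The sequence lies at chr7:20455137-20455196 (hg19). ITGAV, its alpha chain, differed from NC by 0.02 ± 0.12 with miR-629-3p (95% interval -0.29 to 0.33). ITGA5, the alpha chain of the fibronectin receptor, had signals of 0.69 and 1.02 with miR-629-3p and 1.54 and 1.41 with miR-210-3p, 1.54-fold lower with miR-629-3p (-0.62 ± 0.14, adjusted p = 0.0305), and was called against NC with neither. ITGB5 and ITGB6 were called in none of the 6 comparisons, and ITGB3, ITGA2B and ITGA8 were not tested.

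ITGA4 was the member that fell. The alpha-4 chain pairs with beta-1 or beta-7 and binds VCAM1, MADCAM1 and fibronectin, chiefly on leukocytes. Its log2 signals were 1.06 and 0.93 with miR-629-3p, against 1.52 and 1.71 with NC, 1.62 and 1.57 with miR-210-3p and 1.66 and 1.46 under miR-874-3p. Both miR-629-3p arrays were below the other 6. ITGA4 fell 1.53-fold against NC (-0.62 ± 0.11, adjusted p = 0.0202), by a similar amount against miR-210-3p (-0.60 ± 0.11, adjusted p = 0.0171) and against miR-874-3p (-0.56 ± 0.11, adjusted p = 0.0254). The array has 3 ITGA4 sequences, at chr2:182402275-182402334, chr2:182399600-182399659 and chr2:182322335-182322394 (hg19). The second differed from NC by -0.77 ± 0.13 (adjusted p = 0.0198) and the third by -0.58 ± 0.14 (adjusted p = 0.0503), so all lay in 1 direction. ITGB7, the partner of alpha-4 and alpha-E in mucosal lymphocytes, was called in no comparison, with signals from -1.63 to -0.78. ITGAE, the alpha-E receptor for E-cadherin, was 0.28 ± 0.07 above NC with miR-629-3p (adjusted p = 0.0574) and was called with the deposited log2 values. Of the leukocyte chains, ITGB2, common to the leukocyte integrins, had signals from 2.76 to 3.51 in the sequence tested. Another ITGB2 sequence, at chr21:46321625-46326865 (hg19), had signals from -2.73 to -2.00, so the level depended on the sequence read. It was well above background on 1 of the 2 NC arrays. The alpha partners of ITGB2, which are ITGAL, ITGAM, ITGAX and ITGAD, did not reach the level for testing. Of 7 leukocyte markers, 6 had array sequences, and PTPRC, CD14, CD79A and LCP1 were well above background on all 8 arrays in this epithelial line. Their summed log2 signal was 4.11 to 4.19 with miR-629-3p and 4.16 to 4.27 with NC, none of the markers was called, and their part in the values of the leukocyte integrins was not tested.

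Among the laminin alpha chains, LAMA2 rose. LAMA2 is the alpha-2 chain of muscle and nerve basement membranes, and its loss causes a congenital muscular dystrophy. Its sequence on the array is printed because its ends lie apart on the genome, at chr6:129833622-129835560 (hg19), so that it spans an exon junction and reports spliced RNA.
LAMA2: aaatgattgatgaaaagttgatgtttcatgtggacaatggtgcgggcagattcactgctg
Its log2 signals were 0.29 and 0.11 with miR-629-3p, against -1.23 and -1.01 with NC, -1.11 and -0.95 with miR-210-3p and -0.81 and -1.24 under miR-874-3p. The miR-629-3p arrays were above the other 6, which overlapped. LAMA2 was 2.49-fold higher than with NC (1.32 ± 0.17, adjusted p = 0.0107), 2.35-fold higher than with miR-210-3p (1.23 ± 0.17, adjusted p = 0.00903) and 2.34-fold higher than with miR-874-3p (1.23 ± 0.17, adjusted p = 0.0117). With normexp the rise over NC was 0.63 (adjusted p = 0.00243).

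LAMA1, the alpha chain of the laminin of the early embryo, had signals of -0.999 and -1.49 with miR-629-3p and -2.39 and -2.70 with miR-210-3p, a difference of 2.46-fold (1.30 ± 0.29, adjusted p = 0.0295), but was not called against NC. Its sequence was well above background on 1 of the 2 NC arrays. LAMA4, the alpha chain of vessel walls, was 0.72 ± 0.19 higher with miR-210-3p than with NC (adjusted p = 0.0833). LAMA5, the alpha chain of laminin-511, was tested by a sequence at chr20:60920556-60920615 (hg19) that the array assigns to an Ensembl transcript. Whether it reports LAMA5 was not tested, so its level is not given. The RefSeq sequence of LAMA5, at chr20:60885302-60885361, had signals of 1.87 to 2.40 and differed from NC by -0.17 ± 0.21 with miR-629-3p (adjusted p = 0.605).

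LAMB3, the beta chain of laminin-332, rose with miR-629-3p. Its log2 signals were 7.52 and 7.47 with miR-629-3p, against 7.04 and 7.03 with NC, 7.15 and 7.19 with miR-210-3p and 7.15 and 7.0 under miR-874-3p. The miR-629-3p arrays were above the other 6. The rise was 1.38-fold over NC (0.46 ± 0.08, adjusted p = 0.0181), 1.25-fold over miR-210-3p (0.33 ± 0.08, adjusted p = 0.0362) and 1.34-fold over miR-874-3p (0.42 ± 0.08, adjusted p = 0.0229). The sequence lies at chr1:209788356-209788415 (hg19).

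The result for LAMA3, the alpha chain of laminin-332, depended on the sequence read. The one tested, at chr18:21375992-21376051 (hg19), had signals between -2.13 and -1.30 and no call. The other, at chr18:21534735-21534794, was left out because its spot on the first miR-874-3p array had an outlier flag. Its signals were 4.52 and 4.47 with miR-629-3p, 4.30 and 4.31 for miR-210-3p, 3.98 and 3.98 with NC and 3.77 on the remaining miR-874-3p array. With that array left out for this sequence, a choice made after seeing the data, LAMA3 was higher with miR-629-3p than with NC (0.52 ± 0.07, adjusted p = 0.0155) and than with miR-874-3p (0.73 ± 0.08, adjusted p = 0.0117), and the miR-210-3p difference from NC was 0.32 ± 0.07 (adjusted p = 0.0677). With the flagged spot kept, at 4.95, the miR-629-3p difference was 0.57 ± 0.37 (adjusted p = 0.343).

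The LAMB1 and LAMB2 sequences tested were called between mimics and not against NC. LAMB1, the beta chain of laminin-111 and laminin-511, had signals of 5.99 and 6.02 with miR-629-3p and 6.51 and 6.40 with miR-210-3p, 1.37-fold lower with miR-629-3p (-0.45 ± 0.08, adjusted p = 0.0170). LAMB2, which replaces LAMB1 in laminin-521 of the kidney and the synapse, had 5.24 and 5.26 with miR-629-3p and 4.51 and 4.45 with miR-210-3p, 1.71-fold higher with miR-629-3p (0.77 ± 0.21, adjusted p = 0.0481). That LAMB2 call was lost with the deposited log2 values, with outlier spots kept and where every kept sequence was tested. LAMC1, the most widespread gamma chain, differed from NC by -0.40 ± 0.11 with miR-629-3p (adjusted p = 0.0621). Another LAMB1 sequence, at chr7:107599951-107600010, went the other way from the one tested and was at least 1.19-fold higher with miR-629-3p than with NC (adjusted p = 0.0434), since the NC arrays were not well above background. With normexp or an intensity trend LAMB1 was called against NC with miR-629-3p. LAMB4 and LAMC3 were not tested.

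The remaining names of the rule are no integrin or laminin chains. ITGBL1, a secreted protein with repeats like those of integrin beta chains, had signals of 4.36 and 4.50 with miR-629-3p, against 3.73 and 3.68 with NC, 4.10 and 3.94 with miR-210-3p and 3.70 and 3.62 under miR-874-3p. The miR-629-3p arrays were highest and the miR-210-3p arrays next. ITGBL1 rose 1.65-fold over NC with miR-629-3p (0.73 ± 0.09, adjusted p = 0.00969), 1.33-fold over miR-210-3p (0.41 ± 0.09, adjusted p = 0.0293) and 1.70-fold over miR-874-3p (0.77 ± 0.09, adjusted p = 0.00799), and a second sequence rose by 0.79 ± 0.08 over NC (adjusted p = 0.00742). The sequences lie at chr13:102367945-102368004 and chr13:102367979-102368038 (hg19) and overlap. ITGA9-AS1 differed from NC by -0.48 ± 0.12 with miR-629-3p (adjusted p = 0.0535), its other sequences by 0.77 ± 0.54 and 0.04 ± 0.22, and ITGB2-AS1 was not called. Of the 9 genes that did not reach the level for testing (ITGA2B, ITGA8, ITGAD, ITGAL, ITGAM, ITGAX, ITGB3, LAMB4 and LAMC3), no sequence was well above background on more than 2 of the 8 arrays.

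With 1 array left out, the rise of ITGA10 with miR-629-3p was called each time (difference 3.02 to 3.13), and the other calls against NC depended on single arrays. Those of ITGB8 and ITGBL1 were lost without either miR-629-3p array or without the second NC array. For ITGB8 the adjusted p was then 0.0955, 0.0831 and 0.0763, and for ITGBL1 it was 0.0507 to 0.0633. LAMA2 was lost without the first (adjusted p = 0.0739) or the second (adjusted p = 0.0565) miR-629-3p array. ITGA6 kept its call only without a miR-874-3p array (adjusted p of 0.059 to 0.133 otherwise), and LAMB3 lost it without any miR-629-3p or NC array (0.0647 to 0.109). ITGA4 lost it without any miR-629-3p or miR-210-3p array or the second NC array (0.0502 to 0.104). With miR-210-3p, ITGA2 kept its call only without a miR-874-3p array (0.0511 to 0.103 otherwise), and ITGA10 lost it without either miR-210-3p array or the second NC array (0.0523 to 0.0815).

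Between the mimics, 12 of the 32 genes differed between miR-629-3p and miR-210-3p (22.6% of all genes), 7 between miR-629-3p and miR-874-3p (16.2%) and 3 between miR-210-3p and miR-874-3p (9.8%). Of the 12, 7 were higher with miR-629-3p (ITGA10, ITGB8, LAMA1, LAMA2, LAMB2, LAMB3 and ITGBL1) and 5 lower (ITGA2, ITGA4, ITGA5, ITGB1 and LAMB1). Both arrays of these groups lay in the same slide row. With replicate number fitted as a block, the calls of ITGA5, ITGBL1, LAMB2 and LAMB3 between these mimics were lost. The 3 that differed between miR-210-3p and miR-874-3p, ITGA2, ITGA10 and ITGB1, were all higher with miR-210-3p. Over the 4 groups, an F test called 10 of 32 (25.2% of all genes). In all, 13 of the 32 genes were called in at least 1 of the 6 comparisons (34.5% of all genes) and 19 in none.

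**Figure D3:**
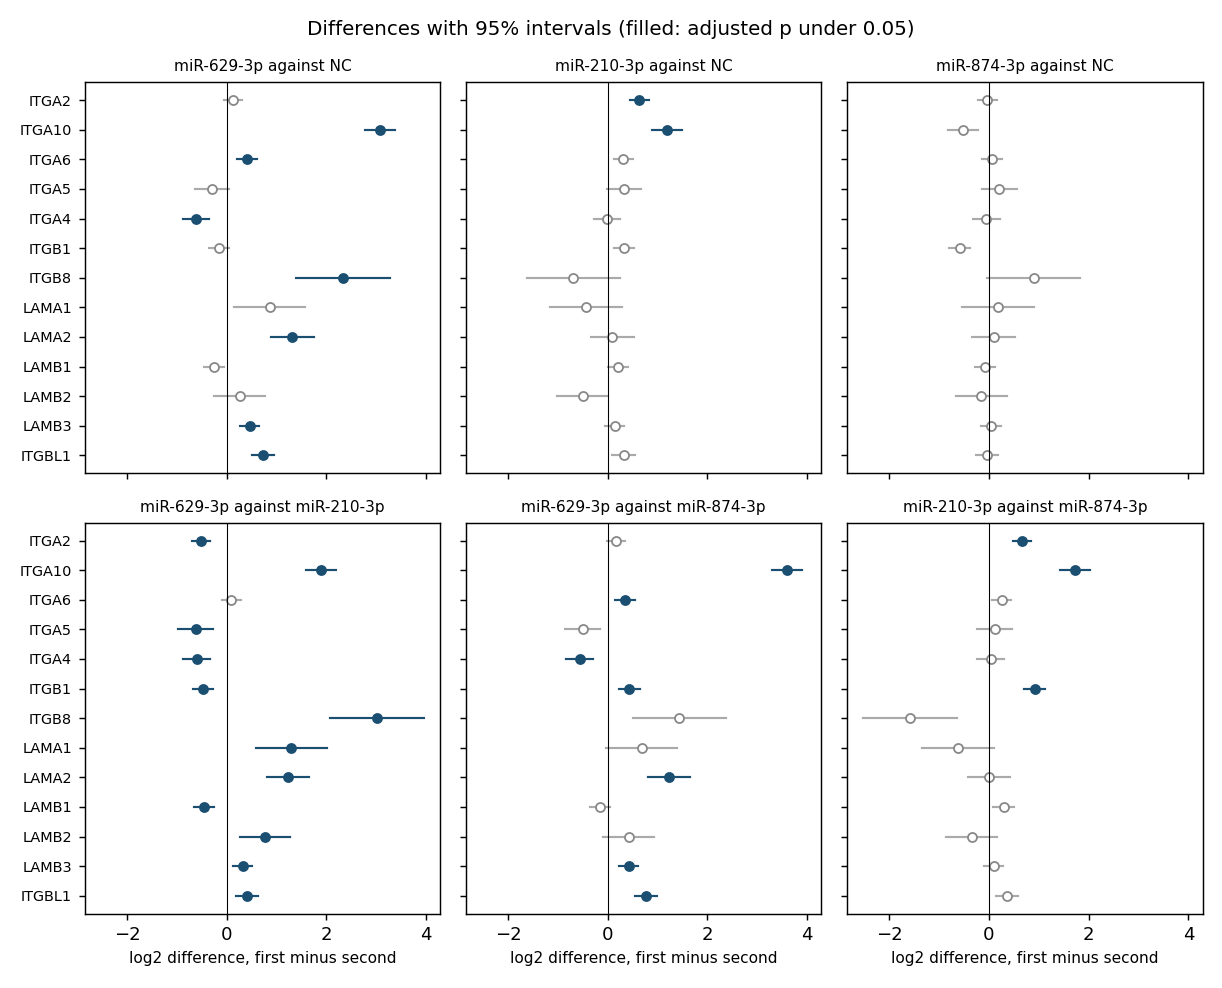
Log2 differences (x axis, first group minus second) with 95% intervals for the 13 genes called in at least 1 of the 6 comparisons, 1 panel per comparison. Filled points passed an adjusted p under 0.05: against NC these were 7 with miR-629-3p, 0 with miR-874-3p and 2 with miR-210-3p, and between the mimics 12, 7 and 3.

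For 10 genes more than 1 sequence could be measured. With miR-629-3p against NC, the sequences of ITGA4 and of ITGBL1 lay on the same side of 0 and those of ITGA6 both above it. LAMA4, with 4 sequences, had differences of 0.09 to 0.42, and 1 sequence was called (0.33 ± 0.08, adjusted p = 0.0498). LAMB1 had sequences on both sides, at -0.25, -0.19 and 0.63, and so had LAMA5 (0.08 and -0.17), ITGA9-AS1 (-0.48, 0.77 and 0.04) and ITGB2 (-0.07 and 0.00). The 0.08 of LAMA5 came from the Ensembl transcript's sequence, and whether that sequence reports LAMA5 was not tested.

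**Figure D4:**
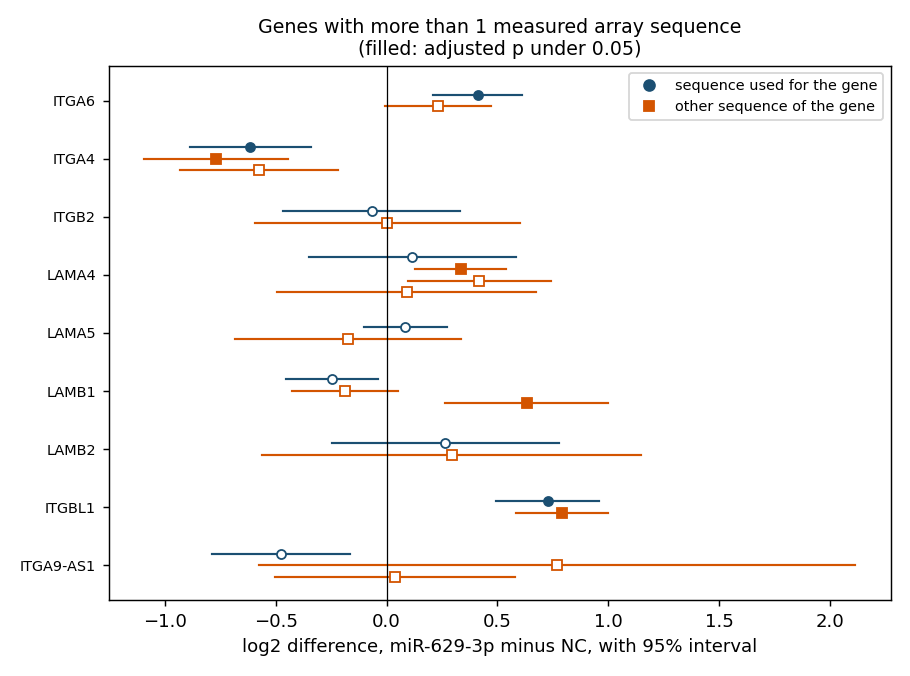
Log2 difference between miR-629-3p and NC (x axis) with 95% intervals for each measured sequence of 9 genes with more than 1. Circles are the sequence used for the gene, squares the others, and filled symbols passed an adjusted p under 0.05; the sequences of ITGA4 and ITGBL1 lie together, and those of LAMB1 lie on both sides of 0.

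The partners of integrins and laminins were read from gene lists. Of 14 tested basement membrane partners, 1 rose and 3 fell with miR-629-3p (9.28% and 7.47% of all genes), and the list's median difference from NC was 0.00 (0.02 over all genes). COL4A1 and COL4A2, the chains of the collagen IV network to which laminin is tied, fell by 1.44 ± 0.09 (adjusted p = 0.00232) and 0.80 ± 0.08 (adjusted p = 0.00628). COL15A1, a collagen of the outer face of the basement membrane, rose at least 1.17-fold, since NC was not well above background (fitted 2.36 ± 0.31, adjusted p = 0.0111). With miR-210-3p only COL4A2 of this list was called (2.2% of all genes lower), and it fell by 1.32 ± 0.08 (adjusted p = 0.00573). Of 6 hemidesmosome genes, 1 rose and 2 fell with miR-629-3p, against the same shares of all genes, and 2 fell with miR-210-3p (2.2% of all). DST, which encodes the plakin BP230, was the one that rose (0.43 ± 0.09, adjusted p = 0.0323). COL17A1, the transmembrane collagen of the hemidesmosome, fell by 0.53 ± 0.10 (adjusted p = 0.0221), as did the basal keratin KRT14, by 0.66 ± 0.14 (adjusted p = 0.0320). With miR-210-3p, KRT5 fell by 1.25 ± 0.19 (adjusted p = 0.0268) and KRT14 by 1.11 ± 0.14 (adjusted p = 0.0180).

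Of 13 other integrin ligands tested, 2 rose and 2 fell with miR-629-3p (9.28% and 7.47% of all genes), and 2 rose with miR-210-3p (3.85% of all). CTGF, a matricellular ligand, rose by 1.22 ± 0.12 with miR-629-3p (adjusted p = 0.00574) and by 1.07 ± 0.12 with miR-210-3p (adjusted p = 0.0135). TNC, the matrix glycoprotein tenascin-C, rose by 1.16 ± 0.09 (adjusted p = 0.00378) and by 0.63 ± 0.09 (adjusted p = 0.0247). CDH1, the E-cadherin that alpha-E beta-7 binds, fell by 0.48 ± 0.12 with miR-629-3p (adjusted p = 0.0453). Of 46 genes of the adhesion complex inside the cell, 3 rose and 2 fell with miR-629-3p, smaller shares than the 9.28% and 7.47% of all genes. Those that rose were GIT2 (0.63 ± 0.13, adjusted p = 0.0287), BCAR1 (0.54 ± 0.10, adjusted p = 0.0211) and CRK (0.49 ± 0.11, adjusted p = 0.0395), a signalling scaffold and a docking protein with its adaptor. With miR-210-3p 4 rose and 1 fell (3.85% and 2.2% of all), and the 3 with the largest change were PDLIM7 (0.98 ± 0.09, adjusted p = 0.00986), FERMT2, the kindlin-2 that helps to activate integrins (0.75 ± 0.09, adjusted p = 0.0174), and TNS4 (0.73 ± 0.07, adjusted p = 0.0117). Of 13 other laminin receptors and tetraspanins, 1 fell with miR-629-3p (7.47% of all genes) and 1 with miR-210-3p (2.2% of all). None rose with either (9.28% and 3.85% of all). The gene was CD47 each time, an integrin-associated membrane protein. It fell by 0.70 ± 0.07 with miR-629-3p (adjusted p = 0.00564) and by 0.42 ± 0.07 with miR-210-3p (adjusted p = 0.0287). With miR-874-3p no gene of these 5 lists was called by limma, where 0.216% of all genes were called higher and 0.207% lower.

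Keratinocyte markers were present and moved with the same mimics. All 10 (KRT5, KRT14, KRT8, KRT18, TP63, EPCAM, CDH1, SFN, PERP and DSP) were well above background on all 8 arrays. With miR-629-3p 5 of the 10 fell (7.47% of all genes) and 0 rose (9.28% of all). With miR-210-3p 3 fell (2.2% of all) and 0 rose (3.85% of all). Their summed log2 signal was 10.42 to 10.43 with miR-629-3p, 10.62 to 10.64 with miR-210-3p, 10.73 to 10.82 with miR-874-3p and 10.80 to 10.88 with NC. Of 7 fibroblast markers, 2 were tested. PDGFRB was above background on all arrays and was called higher with miR-629-3p (9.28% of all genes) and miR-210-3p (3.85% of all). COL1A2, COL3A1, PDGFRA, DCN and LUM were well above background on none. The remaining marker, COL1A1, was well above background on some arrays only and was not called. Over the 2 markers tested, the median difference from NC was 1.70 with miR-210-3p, where PDGFRB differed by 0.50 ± 0.08. How much of the summed fibroblast signal below came from COL1A1 was not tested. Of 6 endothelial markers, 3 were tested, and VWF alone was called higher with miR-629-3p (9.28% of all genes). Of 4 platelet markers GP9 alone was above background on all arrays. The summed fibroblast signal was -0.61 to -0.57 with miR-629-3p, -0.08 to 1.01 with miR-210-3p and -0.74 to -0.73 with NC, the endothelial 1.35 to 1.47, 0.52 to 0.73 and 0.65 to 0.83, and the platelet -1.03 to -0.75, -0.87 to -0.47 and -1.17 to -0.81. The part of these markers in the integrin and laminin values was not tested.

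The promoters of ITGA10 and ITGB8, the genes with the largest changes, are shown to compare their sequence. RefSeq (GRCh38.p14) promoters were matched for 27 of the 41 genes and for all 8 called against NC. The 250 bases before the start were searched on both strands for motifs: the AP-1 site is TGANTCA. The GC box is read as GGGCGG. For the TATA box the letters were TATAAA. The TEAD site is GGAATG. Matches are in capitals.
ITGA10: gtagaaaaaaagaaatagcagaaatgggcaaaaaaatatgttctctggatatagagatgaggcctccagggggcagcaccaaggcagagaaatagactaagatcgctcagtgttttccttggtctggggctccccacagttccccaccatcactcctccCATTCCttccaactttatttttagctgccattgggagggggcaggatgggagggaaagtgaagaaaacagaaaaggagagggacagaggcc
ITGB8: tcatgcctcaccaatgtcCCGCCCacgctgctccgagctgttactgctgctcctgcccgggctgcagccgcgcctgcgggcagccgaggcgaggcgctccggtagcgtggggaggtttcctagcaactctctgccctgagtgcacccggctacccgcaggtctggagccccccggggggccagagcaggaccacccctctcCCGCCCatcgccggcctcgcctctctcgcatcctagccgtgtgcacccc
The first lies at chr1:145910051-145910300 on the minus strand and the second at chr7:20330650-20330899 on the plus strand. The ITGB8 promoter had 71.2% G and C and 21 CG pairs, while that of ITGA10 had 48.4% and 1 CG pair. A GC box was in 5 of the 8 (42.6% of 35116 promoters), a TEAD site in ITGA10 and LAMA2 (11.9%), an AP-1 site in LAMB3 alone (6.57%) and a TATA box in ITGA6 alone (10.7%). No motif was in all 8.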

How the data were processed

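The members and the gene lists were chosen with earlier results of these data known. For each array the authors deposited Agilent Feature Extraction 11.5.1.1 output, with background-subtracted, spatially detrended spot intensity that was not normalized between arrays. They also deposited log2 values, which lay within 5.02e-05 of the values used here after an offset of -0.00 to 0.05 per array. Coordinates are those of the array annotation (hg19), which gives no exon or UTR, and RefSeq tables of GRCh38.p14 supplied sequences and gene order only.

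Intensities were logged (base 2) and set relative to the 75th percentile of each array. Control spots and 87 to 346 outlier spots of 60901 per array were dropped, and replicate spots of each sequence averaged. A sequence was kept with a value on all 8 arrays and detection (the scanner's well-above-background flag) on both replicates of some group, and the brightest kept sequence stood for its gene (21283 of 43317 names). A linear model in limma 3.58.1 (R 4.3.3; lmFit, then eBayes) took in all 8 arrays and no covariates (residual degrees of freedom 4, prior 1.68), and p-values were adjusted by Benjamini-Hochberg across every gene tested. The fit was tested on simulated data. Where a group was not well above background on both arrays, a fold is a lower bound against the higher of the dim signal and the array's lowest signal well above background. The number of arrays limits the precision.

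Full values are given for genes called against NC, for LAMA3 and LAMB3 and for ITGA3, ITGA6, ITGB1 and ITGB4. Of other lists, up to 3 called genes with the largest change per mimic are named. Other named members were chosen after their values were seen, and 1 tested gene is not reported here. Alternatives are in the closing section. The study names Student's t-test and ANOVA for its statistics, and these were run as alternatives.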

Additional observations from a re-analysis of the deposited data

How the results depend on the processing

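No fold change of a gene called against NC changed direction under the alternatives run (196 values), and 147 stayed past the threshold. Several alternatives keep the fold change as it was by design, so they could not reverse it. These were the intensity trend, the replicate block, the t-test and the fit to only the arrays compared. Leaving out an array of a group not compared was another. Where every kept sequence was tested, the sequence with the lowest p was taken. ITGA10 had no value with detection on all 8 arrays. Counts of integrin and laminin genes called did move, as did the shares of all genes. The methods' t-test with Benjamini-Hochberg called 0 for each mimic against NC (0%, 0.0047% and 0% of all genes), and 3, 0 and 0 (5.91%, 0% and 0.0141%) for miR-629-3p against miR-210-3p, miR-629-3p against miR-874-3p and miR-210-3p against miR-874-3p. At the study's threshold it called 3, 1 and 0 against NC (3.9%, 1.94% and 0.714% of all genes). Normexp with an offset of 50 called 11 (7 higher, 4 lower; 6 and 1 in the main test) with miR-629-3p, 1 with miR-874-3p and 6 with miR-210-3p against NC, 11 for miR-629-3p and 9 for miR-210-3p against miR-874-3p, and 16 across the groups, where the shares of all genes called were 21.5%, 1.56%, 11.3%, 21.7%, 15.4% and 33.5%. An intensity trend called 11, 10 and 1 against NC, 11 and 10 against miR-874-3p, and 19 across the groups (22.8%, 11.8%, 2.33%, 21.8%, 16% and 35.6% of all genes). For miR-210-3p against NC, 1 was called with floored signals (7.17% of all genes), 0 without a detection filter (0.108%) and 1 with only the arrays compared (0.827%). For miR-874-3p against NC, 1 was called with quantile normalization (ITGA10; 0.437% of all genes) and 1 with detection on all 8 arrays (ITGB1; 0.563%). Without a detection filter 3 were called between miR-629-3p and miR-210-3p (3.59% of all genes) and 6 across the groups (18.6%). With only the arrays compared 1 was called for miR-629-3p and 0 for miR-210-3p against miR-874-3p (1.26% and 0.0705% of all genes), and detection on all 8 arrays gave 5 for the latter (15.5%). Keeping sequences missing on 1 array, chosen after seeing the data, added LAMA3 to the calls with miR-629-3p against NC. The cause was not tested.

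Replicate numbers did not pair the samples: correlations of replicate differences between groups were -0.11 to 0.03. The number was also fitted as a replicate block. Against NC, that fit called 6 genes for miR-629-3p (9.61% of all genes), 2 for miR-210-3p (2.31%) and 0 for miR-874-3p (0.197%). It called 3 for miR-629-3p against miR-874-3p (9.54% of all genes) and 6 across the groups (12.2%). The crossed pairing of miR-874-3p and NC, chosen after seeing the data, called 0 (0.16% of all genes). A slide block could not be fitted with 1 slide, nor a row term, which the groups determine.

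With each array left out in turn, the lone array was assumed to vary like the other groups. Counts ranged from 1 to 9 (miR-629-3p against NC), 0 to 5 (miR-210-3p against NC), 0 to 0 (miR-874-3p against NC), 1 to 12 (miR-629-3p against miR-210-3p), 1 to 9 (miR-629-3p against miR-874-3p), 1 to 7 (miR-210-3p against miR-874-3p) and 2 to 14 (all groups), while the shares of all genes ranged over 2.18% to 21.9%, 0.371% to 10.9%, 0.103% to 1.33%, 4.65% to 28.3%, 2.51% to 19.8%, 0.728% to 13.3% and 3.24% to 30.9%. The lowest counts with miR-629-3p against NC came without either miR-629-3p array, when ITGA10 alone was called, and without the second NC array 3 were called. ITGA10 stayed called with miR-629-3p without any 1 array. Dim signals limit ITGA10, ITGA11, ITGB6, LAMA1 and ITGB2-AS1, each not well above background on some array.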
